A study of Mus musculus with 4 samples.

Results

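The 4 Tox genes of the mouse (Tox, Tox2, Tox3 and Tox4) were taken as every probe set of the array whose single gene symbol was one of these names, which gave 8 of the 34945 probe sets with 1 symbol, or 4 of 18193 genes. Tox had 3 probe sets, Tox2 had 2, Tox3 had 1 and Tox4 had 2. The family was chosen by name with the log2 signals of these 4 arrays, and their differences between the groups, already in view, so the differences of its members are given as a description, without p-values. RNA came from double positive thymocytes, thymic T cell precursors that carry both CD4 and CD8. In the Ikf/f CD4-Cre+ mice (2 arrays, called Cre-positive here) a CD4-Cre transgene should remove Ikaros (gene Ikzf1) from cells that express it; the Ikf/f CD4-Cre- mice (2 arrays, Cre-negative) carry the same Ikf/f alleles and no Cre. Each array came from a separate mouse, while age, sex and the way the cells were isolated are not stated in the labels. Because every mouse was Ikf/f and no Cre-positive mouse had another Ikzf1 genotype, effects of Cre and of Ikaros loss cannot be told apart.

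Tox proteins are nuclear factors that share a single HMG box, a DNA-bending domain that binds DNA with little regard to sequence. Tox is induced in double positive thymocytes by T cell receptor and calcineurin signals, is needed for the CD4 lineage to form, and is also used by natural killer and other innate lymphoid cells and by T cells exhausted in chronic infection. Tox2 is known from natural killer cells and follicular helper T cells, Tox3 from neurons and epithelial cells, and Tox4 is a broadly expressed subunit of the PTW/PP1 phosphatase complex, which acts on RNA polymerase II.

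Promoters are shown for Tox2, the member with the largest difference between the groups, and for Tox4, which differed little, so that the sequence at their annotated starts can be read beside the values. They are RefSeq windows of 300 bases (250 before and 50 after an annotated start) on GRCm38.p6, printed 5′ to 3′ on the strand of the gene. Capitals mark GGGAA or its complement TTCCC, the core letters recognised by Ikaros proteins.
Tox2, start 1, chr2:163202877-163203176, plus strand: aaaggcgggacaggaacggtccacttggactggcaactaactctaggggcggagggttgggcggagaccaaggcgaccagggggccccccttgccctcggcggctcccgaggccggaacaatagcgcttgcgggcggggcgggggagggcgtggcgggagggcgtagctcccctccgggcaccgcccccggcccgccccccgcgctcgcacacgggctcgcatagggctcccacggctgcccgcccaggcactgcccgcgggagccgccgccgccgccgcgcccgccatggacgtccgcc
Tox2, start 3, chr2:163203936-163204235, plus strand: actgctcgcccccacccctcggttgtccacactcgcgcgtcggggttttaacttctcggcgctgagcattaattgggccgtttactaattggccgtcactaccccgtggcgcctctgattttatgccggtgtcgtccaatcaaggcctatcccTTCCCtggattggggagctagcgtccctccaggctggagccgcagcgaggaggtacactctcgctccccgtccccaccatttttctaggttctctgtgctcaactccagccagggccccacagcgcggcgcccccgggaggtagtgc
Tox2, start 4, chr2:163225203-163225502, plus strand: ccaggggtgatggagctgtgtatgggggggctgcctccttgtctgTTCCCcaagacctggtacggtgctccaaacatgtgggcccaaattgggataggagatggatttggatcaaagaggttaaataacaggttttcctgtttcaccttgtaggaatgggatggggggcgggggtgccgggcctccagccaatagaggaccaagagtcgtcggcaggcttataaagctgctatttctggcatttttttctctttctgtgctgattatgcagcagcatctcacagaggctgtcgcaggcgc
Tox4, chr14:52278896-52279195, plus strand: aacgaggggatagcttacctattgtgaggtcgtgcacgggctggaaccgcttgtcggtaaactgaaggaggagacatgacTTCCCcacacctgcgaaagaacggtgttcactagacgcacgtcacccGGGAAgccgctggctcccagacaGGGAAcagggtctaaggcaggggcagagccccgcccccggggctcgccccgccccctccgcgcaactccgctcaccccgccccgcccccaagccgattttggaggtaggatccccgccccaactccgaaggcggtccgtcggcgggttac
The RefSeq windows used here numbered 5 for Tox2 and 1 each for Tox3 and Tox4, and they included none for Tox. The Tox2 window of start 2 overlaps that of start 1, and the window of start 5 is shifted by 1 base from that of start 4. GGGAA on either strand occurred in 0 copies in the Tox2 windows of starts 1 and 2, in 1 copy in each of those of starts 3, 4 and 5, in 0 copies in the Tox3 window and in 3 copies in the Tox4 window. Over all 32851 promoter windows of the table, 62.7% held at least 1 copy. The longer form TGGGAA, which contains GGGAA, was in none of the 7 family windows (0 copies) and in 25.6% of all windows. GC content was 77.0% at start 1, 62.0% at start 3 and 53.3% at start 4 of Tox2, 85.3% in the Tox3 window and 65.7% in the Tox4 window, against a median of 52.7% over all windows. The arrays do not tell which start a transcript came from, and a match of letters is not a binding site.

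The cells had the signals of double positive thymocytes in both groups, and the targeted gene was lower. The brightest Ikzf1 probe set read 10.80 and 10.62 in the Cre-positive and 12.40 and 12.08 in the Cre-negative mice. That was a difference of −1.53 ± 0.16 (SE, n = 2 per group, adjusted p = 0.024 in limma with Benjamini-Hochberg adjustment over all kept genes). With all Ikzf1 probe sets averaged the difference was −0.88 ± 0.11 (SE). Either value checks the labels only if the probes lie in the deleted part, which is not given. With any 1 array left out the brightest Ikzf1 probe set differed by between −1.69 and −1.37 and did not pass. Values are log2 signals from RMA, a method that removes background, equalises the distributions of the arrays and combines the probes of each set into 1 value. Among markers of the stage, the recombinase gene Rag1, chosen after its values were seen, averaged 13.33 in the Cre-positive and 13.44 in the Cre-negative mice, and Cd8a 12.71 and 13.02. Ptcra, of the same list, averaged 9.91 and 8.75, and Cd1d1 10.47 and 11.13, so the markers did not move together. Xist, transcribed from the inactive X chromosome, read 5.09 and 5.37 in the Cre-positive mice and 4.73 and 12.75 in Cre-negative mice 1 and 2, so Cre-negative mouse 2 alone had a female pattern. All 4 genes of the family were kept by the filter on low signal (a gene mean of at least 4.76, the 40th percentile). Of the 11639 genes kept, 160 passed an adjusted p under 0.05 (129 higher and 31 lower), and 80.6% of calls were higher; with arrays centred on the median of the kept genes 61.0% of 123 calls were.

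Tox2 was the member that differed most. Its brighter probe set, 1440156_s_at, read 7.93 and 8.12 in the Cre-positive mice, against 6.82 and 6.86 in the Cre-negative mice. Both Cre-positive arrays lay above both Cre-negative arrays, and the gap between the groups was several times the spread within either. The means were 8.02 ± 0.14 and 6.84 ± 0.027 in the Cre-positive and Cre-negative mice (SD, n = 2 each), a difference of 1.19 ± 0.12 (SE) or 2.27-fold. In bulk RNA, more cells of a type and more RNA per cell cannot be told apart. Of all probe sets with 1 symbol, 0.936% had a larger difference in either direction. The second Tox2 probe set, 1457757_at, read 3.83 and 3.99 in the Cre-positive and 3.87 and 4.00 in the Cre-negative mice. It lay under the filter on all 4 arrays and the groups overlapped, with a difference of −0.020 ± 0.12 (SE). The Tox2 pattern thus rests on a single probe set, whose _s_ suffix marks probes that can match several transcripts. With both Tox2 probe sets averaged the difference was 0.58 ± 0.12 (SE). Because the family was chosen with these differences in view, a call of a member is a description and not support. Among the 4 genes of the family, Tox2 alone was called, 1 higher and 0 lower, against 1.37% of all kept genes (1.11% higher and 0.266% lower). That count was 0 when the probe sets of each gene were averaged, where the Tox2 value took in the probe set under the filter. The count was also 0 without probe sets of an _x_, _s_ or _a_ suffix, but there the remaining Tox2 probe set lay under the filter and Tox2 was not fitted. With any 1 array left out the brighter probe set differed by 1.09 to 1.28, and Tox2 was not called.

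**Figure D1:**
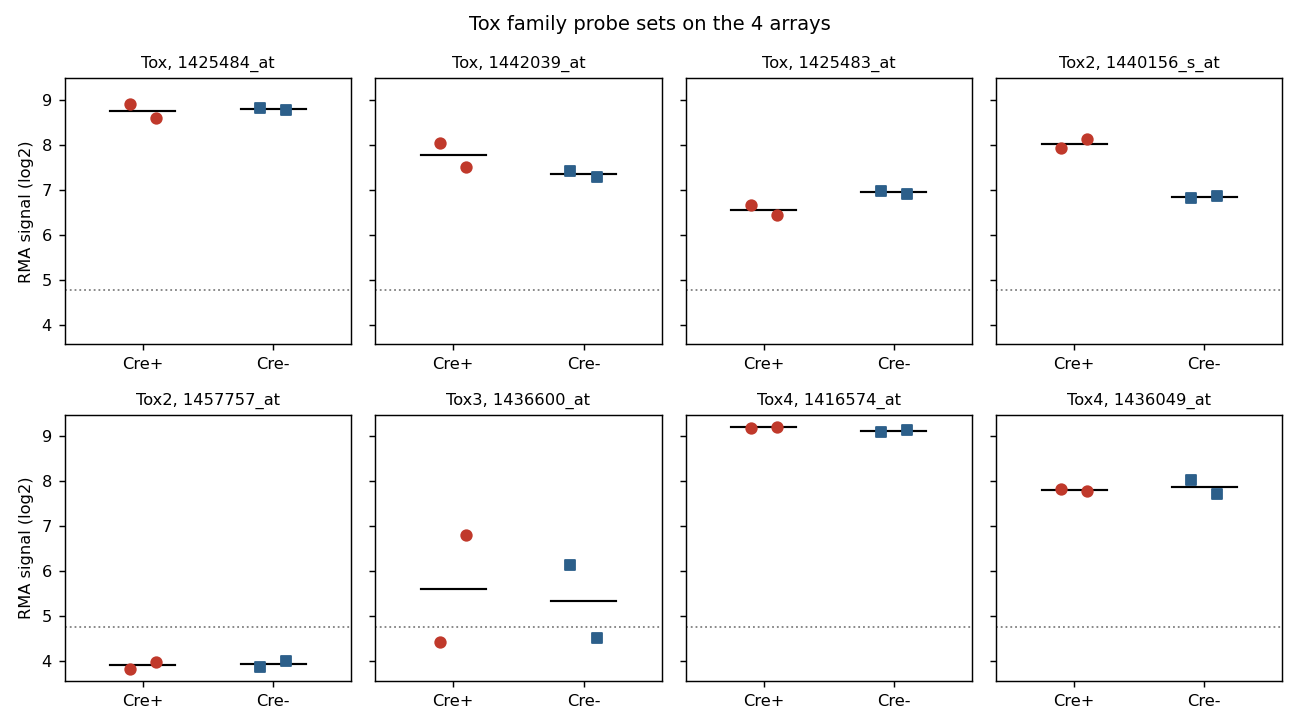
RMA log2 signal (y axis) of the 8 Tox family probe sets in Cre-positive mice (circles, left) and Cre-negative mice (squares, right); black lines are means of 2 arrays and the dotted line is the filter at 4.76. Tox2 1440156_s_at separates the groups at 7.93 and 8.12 against 6.82 and 6.86, while Tox3 has 1 high and 1 low array in each group.

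Tox, the founding member of the family, gave no single direction. The brightest of its 3 probe sets, 1425484_at, read 8.90 and 8.60 in the Cre-positive and 8.81 and 8.77 in the Cre-negative mice. The Cre-negative values lay between the Cre-positive ones, and the difference was −0.039 ± 0.14 (SE, n = 2 per group). It was −0.19 without Cre-positive mouse 1 and 0.11 without Cre-positive mouse 2, so it has no settled direction. Probe set 1442039_at read 8.03 and 7.51 in the Cre-positive mice, against 7.42 and 7.29 in the Cre-negative mice. Here the Cre-positive arrays were higher without overlap, by 0.42 ± 0.19 (SE), but Cre-positive mouse 2 was only slightly above Cre-negative mouse 1. Without Cre-positive mouse 1 this difference was 0.15, and without Cre-positive mouse 2 it was 0.68. Probe set 1425483_at read 6.66 and 6.43 in the Cre-positive mice, against 6.98 and 6.90 in the Cre-negative mice. These Cre-positive arrays were lower without overlap, with a difference of −0.40 ± 0.13 (SE) that lay between −0.51 and −0.28 with any 1 array left out. The positions of the 3 probe sets along the Tox transcripts are not given in the labels. The mean of the 3 probe sets differed by −0.0060 ± 0.15 (SE).

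Tox3 split the mice across the groups and not between them. Its only probe set, 1436600_at, read 4.42 and 6.81 in Cre-positive mice 1 and 2, against 6.15 and 4.51 in Cre-negative mice 1 and 2. One mouse of each group was high and the other lay below the filter of 4.76, so the groups overlapped fully. The means were 5.61 ± 1.69 in the Cre-positive and 5.33 ± 1.16 in the Cre-negative mice (SD, n = 2 each), a difference of 0.28 ± 0.85 (SE). Its range over the arrays, 2.39, was exceeded by 0.392% of probe sets with 1 symbol. The difference was 1.48 without Cre-positive mouse 1, 1.10 without Cre-negative mouse 1, −0.91 without Cre-positive mouse 2 and −0.54 without Cre-negative mouse 2. Tox3 is known from epithelial cells, and the epithelial gene Krt8 read 5.42 and 6.01 in the Cre-positive and 5.26 and 5.31 in the Cre-negative mice. Epcam, an epithelial adhesion gene, read 6.38 and 6.54 in the Cre-positive and 6.48 and 6.71 in the Cre-negative mice. Krt8, like Tox3, was highest in Cre-positive mouse 2, but neither gene followed Tox3 across all 4 arrays. Whether other cells gave the Tox3 signal was not tested.

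Tox4 was the steadiest member. Its brighter probe set, 1416574_at, read 9.19 and 9.21 in the Cre-positive mice, against 9.09 and 9.15 in the Cre-negative mice. The groups did not overlap, yet all 4 values lay within 0.12, a range that 93.5% of probe sets exceeded. The difference of 0.080 ± 0.11 (SE, n = 2 per group) was −0.049 with arrays centred on the median of the kept genes, so it has no settled direction. Probe set 1436049_at read 7.84 and 7.80 in the Cre-positive and 8.02 and 7.73 in the Cre-negative mice. Its Cre-positive values lay between the Cre-negative ones, with a difference of −0.058 ± 0.14 (SE).

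Over the family, 3 probe sets were higher and 1 was lower in the Cre-positive mice without overlap, and in 4 the groups overlapped. Among all probe sets with 1 symbol, 26.6% were higher and 19.4% lower without overlap. The differences ran from −0.40 to 1.19, and 7 of the 8 probe sets passed the signal filter. Centring the arrays on the median of the kept genes moved the median difference of those genes to −0.068, against 0.061 as deposited. Under that scaling the brighter Tox2 probe set differed by 1.06, Tox 1442039_at by 0.29 and Tox 1425483_at by −0.52.

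**Figure D2:**
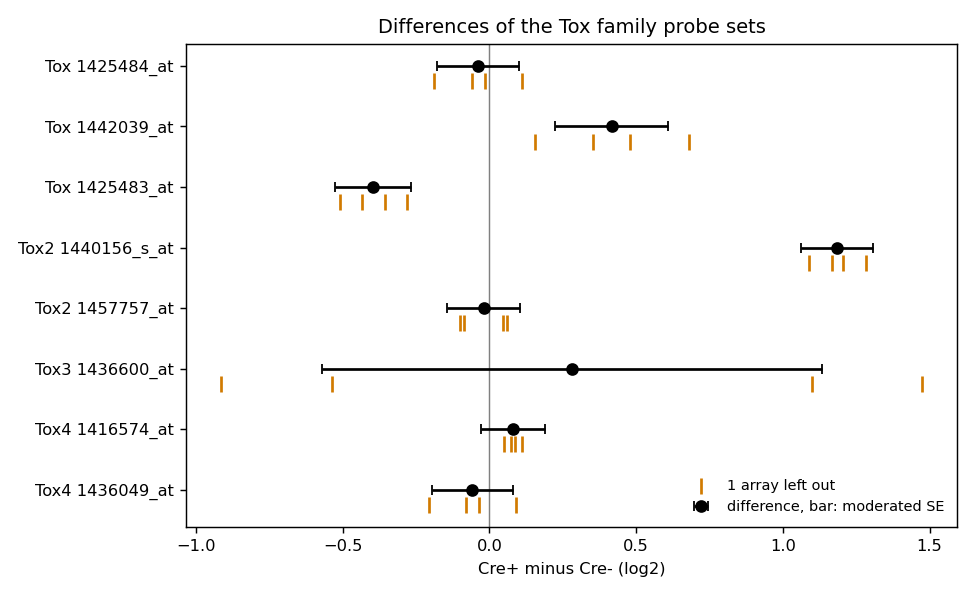
Difference in log2 signal, Cre-positive minus Cre-negative (x axis), for each Tox family probe set; bars are moderated standard errors and ticks are the differences with 1 array left out. The brighter Tox2 set stays between 1.09 and 1.28, while the Tox3 set runs between −0.91 and 1.48.

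Genes that surround Tox in its known pathways were described from lists, whose members are counted where kept by the filter. Over all 11639 kept genes 1.37% were called and 20.6% had an unadjusted p under 0.05 in limma. Counts in the lists below are to be read against these shares, and at 1.37% a short list can easily hold 0 calls. The calcineurin and NFAT genes, which carry the signal that induces Tox, gave 0 called of 9 (1 at an unadjusted p under 0.05 in limma), and their median difference was 0.14, against 0.061 over all kept genes. That median was 0.030 with probe sets averaged and 0.0089 with arrays centred on the kept genes. Nfatc1, an NFAT factor, differed by 0.29 ± 0.12 and the regulatory calcineurin subunit gene Ppp3r1 by 0.29 ± 0.11 (SE). With all probe sets of a gene averaged Nfatc1 differed by 0.082 and Ppp3r1 by −0.099. Among those kept without a call, the catalytic subunit gene Ppp3ca differed by 0.21 and the calcineurin inhibitor gene Rcan1 by 0.20, against 0.049 and 0.079 with probe sets averaged. Among 10 genes that respond to T cell receptor signals 0 were called (2 at an unadjusted p under 0.05 in limma), with a median of −0.088 that was −0.36 without Cre-positive mouse 1 and 0.17 without Cre-positive mouse 2. Itm2a, a membrane protein of positive selection, differed by 0.94 ± 0.18 (SE; limma adjusted p = 0.0745), and the activation marker gene Cd69 by −0.75 ± 0.25 (SE; limma adjusted p = 0.181). The Cd69 difference was −0.39 without Cre-positive mouse 2 and −1.10 without Cre-positive mouse 1. Cd5, which restrains receptor signalling, differed by −0.27, and Nr4a2 by 0.094.

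CD4 and CD8 lineage genes gave 0 called of 15 (3 at an unadjusted p under 0.05 in limma) and a median of −0.12. Lef1, an HMG-box partner of beta-catenin, read 11.20 and 11.04 in the Cre-positive and 10.48 and 10.43 in the Cre-negative mice. That difference of 0.66 ± 0.12 (SE) did not overlap between the groups but missed the threshold (limma adjusted p = 0.0692); it passed with a variance trend (limma adjusted p = 0.0426). Runx1 differed by 0.42, Cd8b1 by −0.29 and Cd8a by −0.30. Gata3, which acts beside Tox in CD4 lineage development, differed by −0.12, and the CD4 lineage factor gene Zbtb7b by −0.13; Gata3 and Zbtb7b were chosen after their values were seen. Among 18 other HMG-box genes 0 were called (2 at an unadjusted p under 0.05 in limma), with a median of 0.093 (−0.036 with arrays centred on the kept genes); besides Lef1, Sox12 differed by 0.40, Ubtf, a factor of ribosomal RNA transcription, by 0.22 and the histone methyltransferase gene Nsd2 by 0.46.

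The partners of Tox4 in the PTW/PP1 complex were described in the same way. Of 5 kept, 0 were called (0 at an unadjusted p under 0.05 in limma), against 1.37% of all kept genes called. Their median was −0.014. Differences were −0.24 for the scaffold gene Ppp1r10, −0.014 for Wdr82, and −0.040 and 0.035 for the phosphatase genes Ppp1cc and Ppp1cb. All 5 had groups that overlapped. Among all probe sets with 1 symbol, 26.6% were higher and 19.4% lower without overlap, and in the rest the groups overlapped too.

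Inhibitory receptors, which Tox sustains in exhausted T cells, gave 0 called of 6 (2 at an unadjusted p under 0.05 in limma), with a median of 0.23 that was −0.018 without Cre-negative mouse 1. Pdcd1, which encodes PD-1, read 8.17 and 7.24 in the Cre-positive and 6.51 and 6.82 in the Cre-negative mice, a difference of 1.04 ± 0.31 (SE; limma adjusted p = 0.156) that was 0.58 without Cre-positive mouse 1. Ctla4 ran the other way, by −0.81 ± 0.26 (SE; limma adjusted p = 0.174), while Lag3 differed by 0.25 and Cd160 by 0.20. Among 5 innate lymphoid factors 2 were called, both higher, against 1.11% of all kept genes called higher. The list was chosen with earlier results of these data known, so this count is a description. The median of the 5 was 0.037 (−0.092 with arrays centred on the kept genes). Of the 8 on the array, Nfil3, Tbx21 and Eomes lay under the filter. Id2, whose protein blocks E proteins, rose by 2.12 ± 0.22 (SE; limma adjusted p = 0.0248), but without probe sets of such a suffix it differed by 0.24 and did not pass. The interleukin 7 receptor gene Il7r rose by 1.12 ± 0.12 (SE; limma adjusted p = 0.0271). Zbtb16 differed by −0.13 and Ets1 by 0.037. Il7r did not pass with any 1 array left out, and Id2 did not without Cre-negative mouse 1 (2.25) or Cre-negative mouse 2 (1.99).

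**Figure D3:**
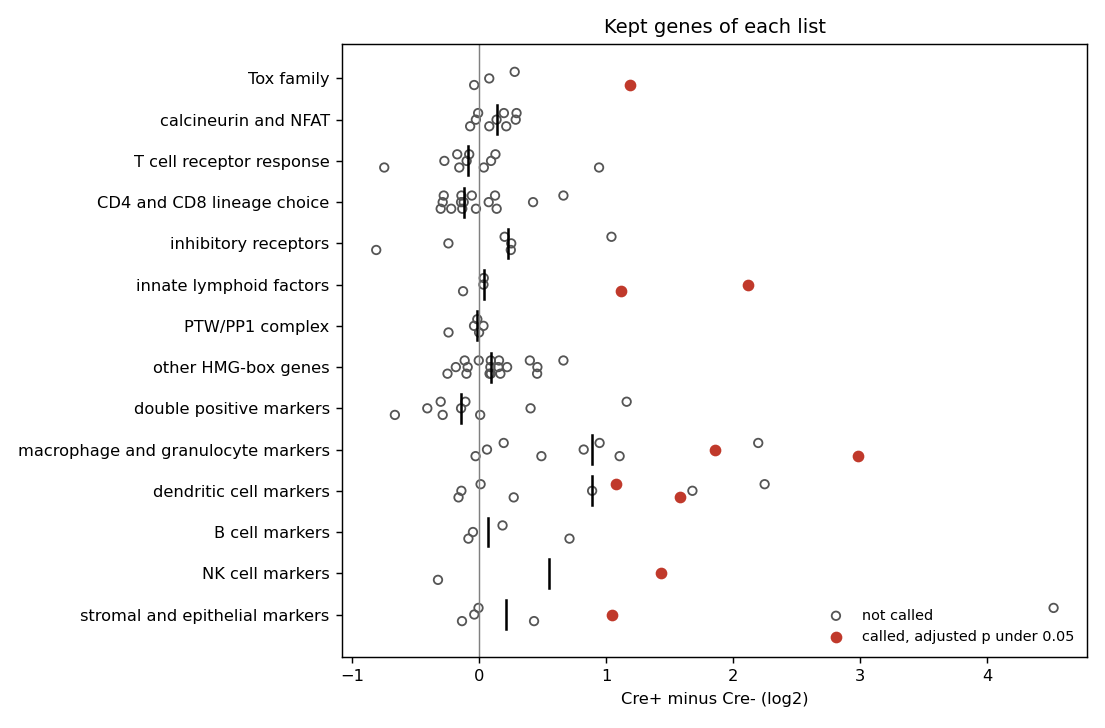
Difference in log2 signal, Cre-positive minus Cre-negative (x axis), of each kept gene by list; filled points were called in limma, open points were not, and vertical bars are list medians. Tox2 stands at 1.19 in the top row, and among the pathway lists only the innate lymphoid factors hold called genes, Id2 and Il7r.

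Some markers of other cells were higher in the Cre-positive mice, as Tox2 was, and their part in its difference was not tested. Of 31 kept, 6 were called higher and 0 lower, against 1.11% and 0.266% of all kept genes. In these marker lists rose and fell stand for called higher and lower, and a marker can be lower without a call. Of 10 macrophage and granulocyte markers 2 rose and 0 fell, Ctss by 2.98 and Lyz2 by 1.85 (limma adjusted p = 0.0205 and 0.0181), while Tyrobp differed by 0.82 and C1qa by 1.11. The summed linear signal of all 13 on the array was 1029 and 1437 in the Cre-positive mice, against 428 and 406 in the Cre-negative mice. The rest of the kept list was named after its values were seen. S100a8 read 4.52 and 8.38 in the Cre-positive and 4.50 and 4.02 in the Cre-negative mice. C1qc differed by 0.95 and C1qb by 0.49. Csf1r differed by 0.19, Fcer1g by 0.062 and Adgre1 by −0.028, and in each the groups overlapped. Cd68, Itgam and S100a9 lay under the filter. Of 9 dendritic cell markers 2 rose and 0 fell, H2-Ab1 by 1.58 and Irf8 by 1.08 (limma adjusted p = 0.0453 and 0.0495). Further class II genes did not pass, H2-Aa at 2.25 and H2-Eb1 at 1.68. The rest of the kept list was named after its values were seen. Cd74 differed by 0.89, Itgax by 0.27, Siglech by 0.012, Zbtb46 by −0.14 and Flt3 by −0.16. Zbtb46 was lower without overlap, and Xcr1 lay under the filter. Without probe sets of an _x_, _s_ or _a_ suffix 0 of 6 were called, and the list median was 0.14 instead of 0.89. The sum of the 10 on the array was 1180 and 1228 in the Cre-positive mice, against 566 and 428 in the Cre-negative mice. Of 2 natural killer cell markers kept 1 rose, Gzma by 1.43 (limma adjusted p = 0.0408), and Prf1 differed by −0.32. The sum of the 8 on the array was 4021 and 2895 in the Cre-positive mice, against 1402 and 1316 in the Cre-negative mice. Gzma made up most of it: the other 7 summed to 154 and 151 in the Cre-positive mice, against 151 and 150 in the Cre-negative mice. The defining genes Ncr1, Klrk1, Klrd1 and Klre1 lay under the signal filter. Of 6 stromal and epithelial markers 1 rose, Pdgfrb by 1.05 (limma adjusted p = 0.04), and Col1a2 differed by 4.52 (limma adjusted p = 0.107). It passed at 2.75 without Cre-positive mouse 1 and at 6.29 without Cre-positive mouse 2 (limma adjusted p = 0.0241 and 0.0054). The sum of the 10 on the array was 3368 and 670 in the Cre-positive mice, against 372 and 381 in the Cre-negative mice. Without Col1a2 the other 9 summed to 376 and 413 in the Cre-positive mice, against 336 and 341 in the Cre-negative mice. Of 4 B cell markers 0 were called (1 at an unadjusted p under 0.05 in limma), with Ms4a1 at 0.71, Pax5 at 0.18, Cd79b at −0.084 and Blnk at −0.048, and with sums of 431 and 529 in the Cre-positive and 459 and 493 in the Cre-negative mice. The rises of H2-Ab1, Irf8, Gzma and Pdgfrb did not pass with arrays centred on the median of the kept genes (limma adjusted p between 0.0506 and 0.0676). The calls of these lists, 6 with all arrays, numbered 4 without Cre-positive mouse 1, 3 without Cre-positive mouse 2, 2 without Cre-negative mouse 1 and 0 without Cre-negative mouse 2. RMA signals have no true 0, and no marker was at 0. Of 9 double positive markers 0 were called (5 at an unadjusted p under 0.05 in limma), with a median of −0.14. Ptcra differed by 1.16 and Cd1d1 by −0.66, and Cd8a and Cd8b1 are given above. The rest of this list was named after its values were seen. Cd3e differed by 0.41, Dntt by 0.0087, Rag1 by −0.11, Cd4 by −0.14 and Rag2 by −0.41. Ptcra passed without the filter, with probe sets averaged, with a variance trend and after centring each array on its median (limma adjusted p between 0.0411 and 0.0491). The sums of these markers were 40476 and 42085 in the Cre-positive mice, against 45696 and 45702 in the Cre-negative mice.

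Genes next to the family on the chromosomes were set beside it, using the order of protein-coding genes in RefSeq. Jph2, a junctional membrane protein gene next to Tox2, read 5.53 and 5.84 in the Cre-positive and 5.89 and 5.87 in the Cre-negative mice, a difference of −0.20 ± 0.15 (SE; limma adjusted p = 0.501). Gtsf1l, on the other side of Tox2, lay under the filter. Nsmaf, next to Tox, differed by −0.36 ± 0.12 (SE; limma adjusted p = 0.18), Chd9, next to Tox3, by −0.17, and the Tox4 neighbours Rab2b and Mettl3 by 0.052 and −0.13. Of these 5 neighbours kept by the filter 0 were called, and 1, Nsmaf, had an unadjusted p under 0.05 in limma, against 20.6% of all kept genes. They were chosen by position after the values of the family were seen.

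Genes with the most similar pattern were found by the root mean square difference between their deviations from their own mean and those of a member, over the 4 arrays. For Tox4 1416574_at, the member probe set with the highest mean, the 5 nearest were 2410137M14Rik, Prkdc, Tob2, Smim15 and Macir, at 0.00571 to 0.00802, but 3232 of 11635 genes lay within 0.1. Tox2 and Tox3 were examined in the same way after their values were seen. For Tox2 1440156_s_at the nearest were Igkv8-30, an immunoglobulin kappa variable segment, Il7r, the actin regulator gene Wasf1, the focal adhesion gene Tns3 and Slfn1, at 0.0307 to 0.0697, with 16 genes within 0.1. Il7r read 5.74 and 5.93 in the Cre-positive and 4.68 and 4.75 in the Cre-negative mice, close to the steps of Tox2. For Tox3 no gene lay within 0.2 (0 genes); the nearest, at 0.483 to 0.563, were H3f3b, Ifi213, Camp, Afdn and Zfp963. H3f3b, a histone H3.3 gene, read 7.73 and 9.57 in Cre-positive mice 1 and 2, against 9.88 and 8.56 in Cre-negative mice 1 and 2, so it was low and high on the same arrays as Tox3 in each group. With 4 arrays such likeness is a description of these mice.

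**Figure D4:**
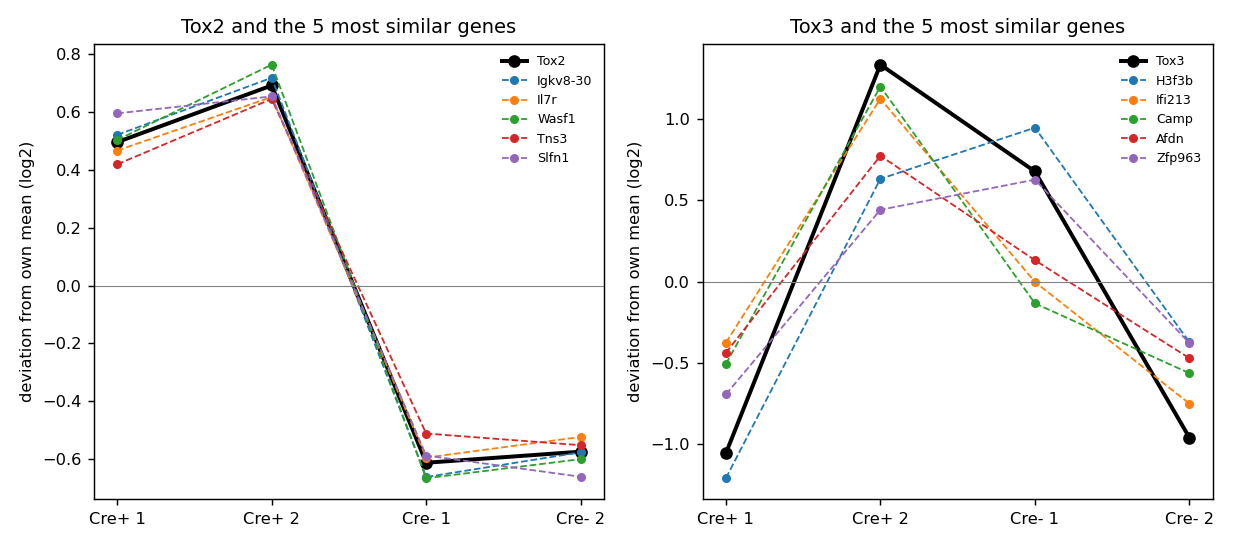
Deviation of log2 signal from the gene's own mean (y axis) on the 4 arrays for Tox2 (left) and Tox3 (right), in black, and their 5 most similar genes, dashed; lines only join the values of 1 gene. The Tox2 set of genes steps between the groups, while Tox3 and H3f3b are high in Cre-positive mouse 2 and Cre-negative mouse 1.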

How the data were processed

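Expression was measured on Affymetrix arrays, 1 array per mouse, in 2 Cre-positive and 2 Cre-negative mice. The authors deposited log2 signals made with RMA (its version is not stated), per the submitters' processing notes; base 2 was taken from the scale RMA returns and from the values (2.18 to 14.4). Scanner files were not used here, so these steps were taken as they stood, and the 4 arrays limit the precision.

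Of 45037 probe sets, 34945 had 1 symbol in the platform annotation, 932 several and 9160 none; 34741 matched the RefSeq gene table by Entrez identifier. limma 3.58.1 (R 4.3.3, lmFit and eBayes, two-sided, Benjamini-Hochberg) was fitted to the probe set of highest mean for each of 18193 genes, of which 11639 at or above the 40th percentile (4.76) were kept, and calls were made at an adjusted p under 0.05. The differences and standard errors of the family came from the same fit over all 34945 probe sets without a filter. Residual degrees of freedom were 2, with a prior of 3.59 in the gene fit, and 0.333 is the smallest p that exact permutation of the 4 arrays could reach for a single gene.

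The members and lists were chosen with earlier results of these data known. Named were all member probe sets, Ikzf1, in each list every called gene and up to 4 genes of smallest p, and the 5 genes of most similar pattern; exceptions are marked. On simulated data for this comparison (11639 genes) the fit recovered 68 of the 100 genes shifted by 1 and 97 of the 100 shifted by 2 (log2), with 8 of 173 calls false. Simulated noise was independent between genes, so real rates can differ. Same-numbered mice are different animals, so the number was a block only as an alternative. Figures were drawn with matplotlib 3.10.9.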

Additional observations from a re-analysis of the deposited data

How the results depend on the processing

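The filter, the probe set standing for a gene, array centring, the variance prior and a block for the sample number were varied, and single arrays were left out; centring on the kept genes was chosen after seeing the data. The count of called genes, 160 as reported, was 90 with the filter at the 60th percentile, 104 with only probe sets without an _x_, _s_ or _a_ suffix, 821 with the replicate block, and 3 to 73 with 1 array left out (3 without Cre-negative mouse 2, 12 without Cre-negative mouse 1, 32 without Cre-positive mouse 1, 73 without Cre-positive mouse 2). Of the listed genes 8 were called as reported, against 5 with the 60th percentile filter, 5 without suffixed probe sets, 14 with eBayes with trend, 21 with the replicate block, 4 with arrays centred on the kept genes and 0 to 5 with 1 array left out. Of the Tox family 1 gene was called as reported, 0 with probe sets averaged, 0 without suffixed probe sets, when the remaining Tox2 probe set fell under the filter, and 0 with any 1 array left out; it was 1 with the replicate block, under which Lef1, Ptcra, Cd69 and Col1a2 also passed (limma adjusted p = 0.0335, 0.0186, 0.0439 and 0.0192). Same-numbered mice share only a number; with 2 pairs, deviations of same-numbered arrays correlated at 0.177 over genes. With arrays centred on the kept genes Tox 1425483_at differed by −0.52, the brighter Tox2 set by 1.06, the dimmer by −0.15 and Tox4 1416574_at by −0.049. Under that setting Ets1 differed by −0.092, Nr4a2 by −0.034 and Ppp1cb by −0.094, and with probe sets averaged Ppp3r1 by −0.099. With 1 array left out Cd5 ran from −0.72 to 0.17, Nr4a2 from −0.051 to 0.24, Ets1 from −0.070 to 0.14, Ppp1r10 from −0.51 to 0.029, Ppp1cb from −0.042 to 0.11, Wdr82 from −0.074 to 0.046, Cd79b from −0.31 to 0.15 and Blnk from −0.21 to 0.11. These genes turned direction and were not called in any of these fits, and the cause was not tested.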
